A study of Mus musculus with 6 samples.

Results

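Interferon-induced effector genes are the genes whose products do the antiviral work of the interferon response. Here they are a list of 49 genes, chosen by name with earlier results of these data known, and grouped below by what their proteins do. Each was read from the probe set, a group of short array probes, whose platform annotation names that gene alone, and where several did, from the one with the highest mean over the 6 arrays. A probe set was found for 46 of the 49, and 36 of them passed the filter on low values and were tested, among 12927 genes tested in all. Oas1g, Isg15 and Ifi44 had no probe set that met the rule in the table used here, and the other 10 are given as values with no test.

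The study compared undifferentiated mouse embryonic stem (ES) cells that carry 1 intact copy of Dicer with ES cells that carry none. Dicer is the ribonuclease that cuts double-stranded RNA and microRNA precursors into short RNAs. Total RNA was measured on 3 arrays of the Dicer +/- line D4, called heterozygous cells here, and on 3 arrays of the Dicer -/- line 27H (27H10 in the title of the series), called null cells. Each genotype is a single cell line, so genotype and line cannot be told apart, and the labels name neither the deleted part of the gene nor the culture conditions. Separate cultures are not named in the labels for arrays of 1 line, and the spread that p-values measure here may therefore be technical. The labels give all 6 arrays the same date of analysis, so no batch by that date can be compared. Batches of culture, RNA or hybridization were not examined.

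Interferons are secreted proteins that bind cell-surface receptors, and the receptors' kinases then activate STAT factors. STAT factors joined to IRF9 bind DNA at interferon-stimulated response elements (ISREs), and STAT dimers bind gamma-activated sites (GAS). The genes switched on in this way degrade or sense foreign RNA, block its translation, hold virus particles at membranes and tag proteins with the ubiquitin-like modifier ISG15. ES cells are known to make little interferon and to respond to it weakly.

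Values are array intensities on a linear scale in arbitrary units, and differences are null minus heterozygous means of log2 values, with the standard error (SE, n = 3 arrays a line) after ±. A gene was tested if it reached an intensity of 32 (5 on the log2 scale) on at least 3 of the 6 arrays. It was called when its limma adjusted p, over all genes tested, was under 0.05 and its difference was at least 2-fold. Probe sets differ in how brightly they bind, so levels are compared between arrays and not between genes. Dicer1 itself read 1117, 1124 and 1053 in heterozygous and 1256, 1132 and 1203 in null cells (difference 0.12, adjusted p = 0.222). This checks nothing about the genotype, since the labels leave unsaid which exons were deleted. The ES cell markers Pou5f1, Nanog and Sox2 read between 5756 and 13989 over the 6 arrays. Of 10 ES cell markers 0 were called in either direction, where 7.23% of all genes were called higher and 6.2% lower. By the adjusted p alone 3 were lower and 1 higher, against 24.3% and 24.5% of all genes. All null arrays lay below all heterozygous arrays for 3 and above them for 2, against 28.9% and 28.3% of all genes. Pairs of arrays of 1 line correlated at 0.967 to 0.973 across genes, and pairs from different lines at 0.924 to 0.928; genes are no replicates.

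Effector genes were called higher in null cells more often than lower. Of 36 tested, 18 were called higher and 1 lower, and 17 were not called. Over all 12927 genes, 7.23% were called higher and 6.2% lower. With no limit on size, judged by the adjusted p alone, 26 effector genes were higher and 1 lower, where 24.5% and 24.3% of all genes were. All 3 null arrays lay above all 3 heterozygous arrays for 27 of the 36, and below them for 1; over all genes these shares were 28.3% and 28.9%. The median difference was 1.21 on the log2 scale for the effector genes tested and -0.01 for all genes; with values under 32 raised to 32 the former was 1.003. Ifit1 passed the filter through its null arrays alone, so the counts describe the genes that passed and not all 49. With each array centred on its median, 1263 of all genes were called higher and 575 lower, against 934 and 802 without, and 20 effector genes were called higher and 0 lower. Because RNA of whole cultures was measured, more cells with a transcript and more transcript per cell cannot be told apart.

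**Figure D1:**
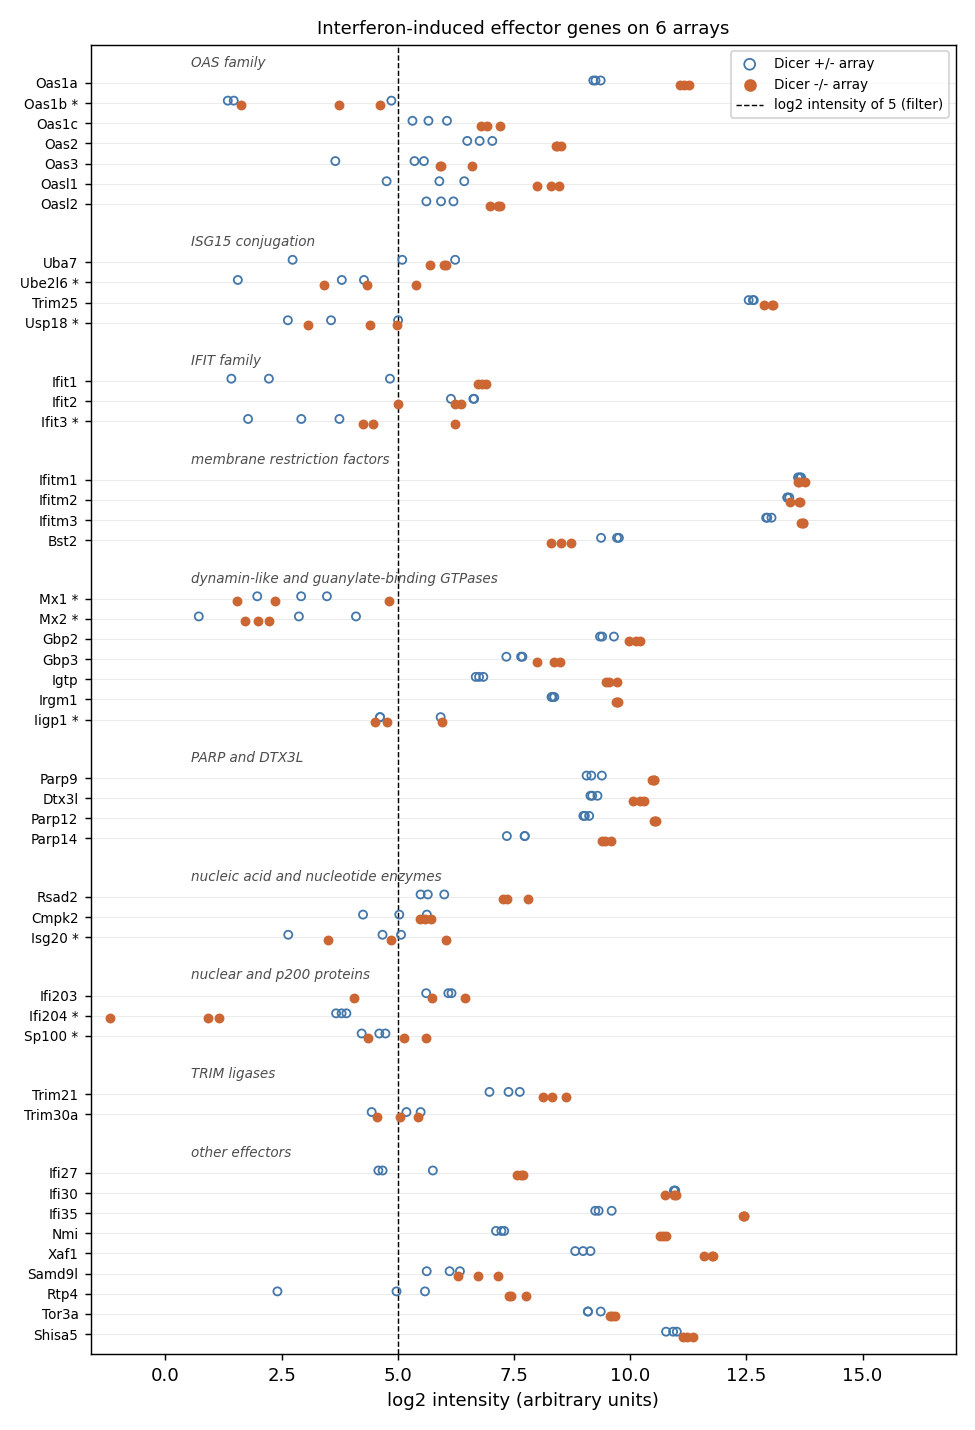
Intensity of each effector gene on a log2 scale (x axis) on 3 Dicer +/- arrays (open points) and 3 Dicer -/- arrays (filled points), by the role of the protein; a star marks a gene that did not pass the filter, drawn as a dashed line. Rows compare arrays within a gene, and for 27 of the 36 tested genes every filled point lies to the right of every open one.

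**Figure D2:**
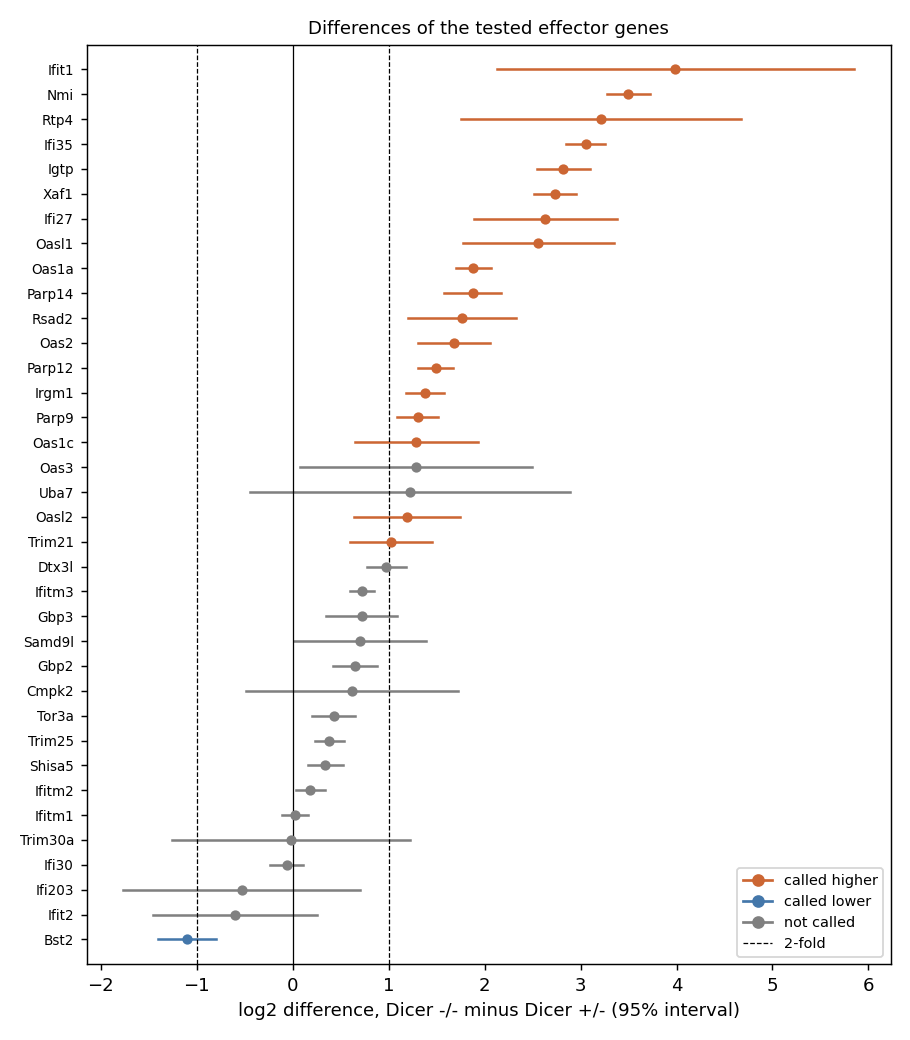
Difference of each tested effector gene, Dicer -/- minus Dicer +/-, in log2 units (x axis), with the 95% interval of the limma fit; dashed lines mark 2-fold. The 18 genes called higher lie between 1.03 for Trim21 and 3.99 for Ifit1, and Bst2 alone was called lower.

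Several effector genes hold matches to the response element near their start. Windows of 250 bases before to 50 after the annotated start were taken from RefSeq (GRCm38.p6), which gave at least 1 window for 37 of the 49 genes. They were searched for an ISRE-like motif, GAAANNGAAA, on both strands, where matches may overlap each other, and for a GAS-like motif, TTCNNNGAA, which reads the same on both strands. An ISRE-like match was present for 19 of the 37 genes and for 3.99% of the 27025 genes in the table (3.44% of 32851 windows). A GAS-like match was present for 8 of the 37 and for 9.55% of all genes (8.3% of windows). The effector genes were listed as interferon-induced, so the difference in shares describes the list. Among the genes called higher with a window, 7 of 13 held an ISRE-like match, as did 8 of the 16 that were tested and not called.

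The 140 bases before the start are shown, 5′ to 3′ on the gene's strand, for 6 genes that rose and for Bst2, which fell, because they show that a match to the motif was present on both sides of the result. Capitals mark ISRE-like matches. Positions are counted back from the start, with -1 as the base before it. In Oas1a (chr5:120907526-120907665, minus strand) overlapping matches run from -20 to -5, and in Oas1c (chr5:120812515-120812654, minus strand) from -114 to -99. Ifit1 (chr19:34640749-34640888, plus strand) has separate matches at -104 and -85. Igtp (chr11:58199416-58199555, plus strand) has a match at -34, Irgm1 (chr11:48871421-48871560, minus strand) overlapping matches from -30 to -15 and Rsad2 (chr12:26456453-26456592, minus strand) a match at -120. In Bst2 (chr8:71537473-71537612, minus strand) overlapping matches run from -130 to -115.
Oas1a: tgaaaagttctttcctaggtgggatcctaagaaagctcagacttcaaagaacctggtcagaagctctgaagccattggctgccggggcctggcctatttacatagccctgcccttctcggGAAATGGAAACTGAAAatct
Oas1c: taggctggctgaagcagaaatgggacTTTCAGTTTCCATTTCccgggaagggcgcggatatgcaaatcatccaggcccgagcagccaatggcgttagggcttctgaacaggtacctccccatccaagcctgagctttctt
Ifit1: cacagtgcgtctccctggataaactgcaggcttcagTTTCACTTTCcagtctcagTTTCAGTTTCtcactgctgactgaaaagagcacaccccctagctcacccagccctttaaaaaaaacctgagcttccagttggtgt
Igtp: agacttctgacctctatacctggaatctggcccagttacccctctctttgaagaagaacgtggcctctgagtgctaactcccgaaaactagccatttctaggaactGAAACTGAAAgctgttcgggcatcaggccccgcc
Irgm1: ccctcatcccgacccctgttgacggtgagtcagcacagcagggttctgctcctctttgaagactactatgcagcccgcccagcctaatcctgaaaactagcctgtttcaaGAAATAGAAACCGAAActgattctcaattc
Rsad2: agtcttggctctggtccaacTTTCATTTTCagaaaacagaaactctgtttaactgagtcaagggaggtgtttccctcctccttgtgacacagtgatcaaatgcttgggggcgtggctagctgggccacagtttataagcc
Bst2: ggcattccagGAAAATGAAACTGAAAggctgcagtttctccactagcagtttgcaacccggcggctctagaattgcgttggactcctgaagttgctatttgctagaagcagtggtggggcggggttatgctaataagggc
A match is a description of these letters and not a measured site. Nmi, Ifi35 and Xaf1, whose rises are given further on, held no ISRE-like match in the window searched. Oasl1, Oasl2 and Parp12, also called higher, held none either.

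The oligoadenylate synthetase (OAS) family rose, with 5 of 6 tested members called higher, where 7.23% of all genes were. The active enzymes of this family make short oligoadenylates in the presence of double-stranded RNA, which switch on the nuclease RNase L. Oas1a, an active synthetase whose promoter is shown above, read 610.4, 659 and 591 in heterozygous and 2269.9, 2444 and 2151 in null cells. Null arrays were higher throughout with no overlap, and the difference was 1.88 ± 0.08 (SE; 3.69-fold, adjusted p = 3.18e-08). Oas2, a larger synthetase, read 131, 108 and 90.1 in heterozygous and 367, 342 and 336 in null cells, a difference of 1.68 ± 0.17 (adjusted p = 1.17e-05). The groups were again apart. Its paralog Oas1c, from the same gene cluster on chromosome 5, read 66.6, 50.5 and 39.8 in heterozygous and 147, 109.8 and 121 in null cells and rose 2.44-fold (adjusted p = 0.00336).

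Both OAS-like genes rose too. Oasl1, which in mice restrains translation of the factor IRF7, read 59.4, 27.1 and 86.2 in heterozygous and 354, 313 and 256 in null cells; heterozygous array 2 lay under an intensity of 32, the filter's limit, and no null array came near the heterozygous range. The rise was 5.90-fold, or 5.58-fold with values under 32 raised to 32 (adjusted p = 0.000124). Oasl2, its neighbour, read 73.4, 60.95 and 48.98 in heterozygous and 146, 126 and 142 in null cells, 2.29-fold higher with no overlap (adjusted p = 0.00221). Oas3, the largest synthetase protein of the family, read 12.6, 47.2 and 41.02 in heterozygous and 59.6, 61.3 and 96.7 in null cells. Its null arrays lay above its heterozygous ones, but the difference of 1.29 had a 95% interval of 0.08 to 2.49 and did not pass (adjusted p = 0.0737). Median centring (1.44, adjusted p = 0.0393) or leaving out heterozygous replicate 2 (1.64, adjusted p = 0.0496) made it a call. Without heterozygous replicate 1, which read 12.6, the difference was 0.68 (adjusted p = 0.198). With values under 32 raised to 32 it was 0.84 (adjusted p = 0.0235), and both were short of 2-fold. Oas1b stayed under 32 on every array, between 2.53 and 29.1, and was not tested.

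Of the IFIT family, which binds foreign RNA and blocks its translation, Ifit1 was called higher and Ifit2 was not called. Ifit1 read 2.67, 28.5 and 4.67 in heterozygous and 106, 112 and 119 in null cells. Every heterozygous array was under 32 and every null array well above it, so Ifit1 passed the filter through its null arrays alone and had to differ. The fitted difference of 3.99 depends on heterozygous values of that low range, and the fold was 3.51 with values under 32 raised to 32 (adjusted p = 0.00227 for the fitted difference). Ifit2 read 99.8, 98.8 and 70.7 in heterozygous and 75.1, 32.02 and 82.6 in null cells, with overlapping groups and a difference of -0.60 (95% interval -1.46 to 0.25, adjusted p = 0.226). Ifit3 was above 32 on null array 3 alone, at 74.6, and at 18.96 to 22.2 on the other null arrays. Its heterozygous arrays read 3.43 to 13.4, and it was not tested.

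Immunity-related GTPases, which act on vacuoles that hold pathogens, were called higher at both members that could be tested, against 7.23% of all genes. Igtp read 115, 102 and 107 in heterozygous and 745, 839 and 711 in null cells, a 7.07-fold rise (difference 2.82 ± 0.13, SE; adjusted p = 3.49e-08). Irgm1 read 322, 330.1 and 317 in heterozygous and 847, 849 and 824 in null cells, 2.60-fold higher (adjusted p = 5.26e-07). The spread within a line was small beside both shifts. Iigp1, another gene of this kind, reached 32 on 1 array of each line (60.6 and 61.4, both labelled replicate 2) and was not tested.

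The guanylate-binding proteins Gbp2 and Gbp3 did not reach the 2-fold limit, although their arrays did not overlap. Gbp2 read 803, 653 and 674 in heterozygous and 1122, 1192 and 1013 in null cells, a difference of 0.65 ± 0.10 (adjusted p = 0.000347), and Gbp3 read 201, 205 and 162 in heterozygous and 254, 358 and 327 in null cells, a difference of 0.72 ± 0.17 (adjusted p = 0.00415). Both genes passed the adjusted p and missed the limit of size. Mx1 and Mx2, dynamin-like GTPases that trap viral nucleocapsids, stayed under 32 on all arrays, at 2.90 to 28.03 and 1.64 to 17.1, and were not tested.

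Of the PARP family and the partner Dtx3l, 3 of 4 genes were called higher, against 7.23% of all genes. Parp9 binds the ubiquitin ligase Dtx3l, and both lie beside Parp14 on chromosome 16 in the RefSeq gene order. Parp14 read 163, 212 and 213 in heterozygous and 767, 670.1 and 705 in null cells, 3.67-fold higher (difference 1.88 ± 0.13, SE; adjusted p = 8.09e-07). Parp9 read 534, 671 and 573 in heterozygous and 1469, 1469 and 1424 in null cells, 2.46-fold higher (adjusted p = 1.1e-06). Neither gene's groups overlapped.

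Dtx3l read 566, 581 and 628 in heterozygous and 1061, 1253 and 1187 in null cells; its difference of 0.98 (95% interval 0.77 to 1.18, adjusted p = 7.49e-06) lay just under the 2-fold limit. Leaving out heterozygous replicate 3 (1.02) or null replicate 1 (1.04), or centring on medians (1.13), put it past that limit. A dimmer probe set of Dtx3l was at 0.15. Parp12, a zinc-finger member on another chromosome, read 509, 555 and 521 in heterozygous and 1454, 1491 and 1503 in null cells, 2.81-fold higher (adjusted p = 1.19e-07). All 4 genes of this group were higher at the adjusted p alone, where 24.5% of all genes were.

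Rsad2 and Cmpk2 are neighbours on chromosome 12 and act on nucleotides. Rsad2 (viperin), which makes a chain-terminating nucleotide, read 44.9, 50.03 and 63.96 in heterozygous and 224, 164 and 154 in null cells, 3.40-fold higher (difference 1.76 ± 0.26, SE; adjusted p = 0.000169). The groups were far apart. Cmpk2, a mitochondrial nucleotide kinase, read 49.3, 32.7 and 19.04 in heterozygous and 47.8, 44.3 and 52.3 in null cells, close to the filter's limit and with overlapping groups (difference 0.62, 95% interval -0.49 to 1.72, adjusted p = 0.341). Whether the neighbours' differences themselves differ was not tested. Isg20, an exonuclease of RNA, reached 32 on 1 array of each line (33.6 and 66.1) and was not tested.

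Among the remaining effectors, Nmi and Ifi35, whose proteins bind each other, had large rises. Nmi read 138, 156 and 149.9 in heterozygous and 1660.0, 1759 and 1595 in null cells, 11.3-fold higher (difference 3.50 ± 0.10, SE; adjusted p = 1.73e-09). Ifi35 read 608, 777 and 639 in heterozygous and 5538, 5580.2 and 5599 in null cells, 8.31-fold higher (difference 3.05 ± 0.09, SE; adjusted p = 2.13e-09). The lowest null value was several times the highest heterozygous value for both. The identifier of the Ifi35 probe set used marks probes that several transcripts may share; a dimmer probe set without that mark was at 2.68 and another, also marked, at 2.41.

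Xaf1, a partner of the apoptosis inhibitor XIAP, read 451, 507 and 566 in heterozygous and 3535, 3488 and 3081 in null cells, 6.64-fold higher (adjusted p = 8.77e-09). Ifi27, a small hydrophobic protein, read 25.5, 53.9 and 23.9 in heterozygous and 189, 206 and 202 in null cells, with 1 heterozygous array above 32; the rise was 6.21-fold, or 5.22-fold with values under 32 raised to 32 (adjusted p = 6.6e-05). Rtp4, a chaperone of cell-surface receptors, read 31.4, 5.31 and 47.98 in heterozygous and 168, 174 and 217 in null cells. It too had 1 heterozygous array above 32, and rose 9.25-fold, or 5.05-fold with the same floor (adjusted p = 0.00192). For all 3 genes the null arrays lay above the heterozygous arrays.

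Smaller differences, or none that passed, were seen at the other members of this group. Tor3a, a torsin ATPase, rose by 0.43 and Shisa5, a protein of the endoplasmic reticulum, by 0.34 at the adjusted p alone (adjusted p = 0.00458 and 0.00576), both short of 2-fold. Samd9l, an antiviral protein, read 49.2, 69.3 and 80.8 in heterozygous and 144, 105 and 78.9 in null cells, with overlapping groups (difference 0.71, adjusted p = 0.0843). Ifi30, a thiol reductase of lysosomes, read 1989, 1965 and 2005 in heterozygous and 1957, 2037 and 1725 in null cells, a difference of -0.06 with a 95% interval of -0.23 to 0.11. That interval lies well inside 2-fold in both directions.

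Of the 4 tested membrane restriction factors, 0 were called higher and 1 lower, against 7.23% and 6.2% of all genes. Bst2 (tetherin), which holds budding virus particles on the cell surface, read 842, 865 and 663 in heterozygous and 426, 364 and 316 in null cells. It was 2.14-fold lower in null cells with no overlap (difference -1.10 ± 0.14, SE; adjusted p = 5.63e-05). The call rested on a narrow margin: the difference was -0.99 when null replicate 3 was left out and -0.95 after median centring, both short of 2-fold.

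The IFITM proteins, which block fusion of viruses with endosomal membranes and are well known in ES and germ cells, were bright in both lines. Ifitm3 read 7782, 7915 and 8427 in heterozygous and 13385, 13406 and 13064 in null cells, 1.65-fold higher (difference 0.72 ± 0.06, SE; adjusted p = 1.81e-06), which is short of the limit of size. Ifitm2 read 10987, 10688 and 10669.5 in heterozygous and 12732, 12957 and 11124 in null cells, a difference of 0.18 (adjusted p = 0.043). Ifitm1 read 13089, 12518 and 12862 in heterozygous and 12439, 13986 and 12738 in null cells, with overlapping groups. Its 95% interval of -0.11 to 0.16 lies inside 2-fold in both directions, by the spread among arrays of 1 line per genotype. All 3 are neighbours on chromosome 7, and the difference between their shifts was not tested.

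The ISG15 conjugation genes gave 0 calls of 2 tested, where 7.23% of all genes were called higher and 6.2% lower. Trim25, a ligase for ISG15 and ubiquitin, read 6379, 6470.3 and 5995 in heterozygous and 8429.8, 8579 and 7551 in null cells, a difference of 0.38 ± 0.07 (SE; adjusted p = 0.000701) with no overlap. Uba7, the activating enzyme, read 75.2, 34.2 and 6.66 in heterozygous and 65.6, 63.9 and 52.1 in null cells, and heterozygous array 3 lay far under the others (difference 1.22, 95% interval -0.44 to 2.89, adjusted p = 0.208). Ube2l6, the conjugating enzyme, and Usp18, the protease that removes ISG15, reached 32 on 1 array each, null array 3 (41.97) and heterozygous array 3 (32.1), and were not tested. The probe set annotated to both Isg15 and Gm9706 read 94.5, 18.9 and 71.7 in heterozygous and 101.8, 113.9 and 149 in null cells. Its difference of 1.25 did not pass (adjusted p = 0.0795 over probe sets), and its signal cannot be assigned to 1 of the genes.

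Among nuclear and TRIM proteins, Trim21 was called. Trim21, an antibody receptor of the cytosol and ubiquitin ligase, read 197, 126 and 167 in heterozygous and 395, 279 and 319 in null cells, 2.04-fold higher with no overlap (adjusted p = 0.00104). The call was lost without heterozygous replicate 2 (0.85), without null replicate 1 (0.89), with log2 of the value plus 16 (0.96) and as a mean over probe sets (0.94). Trim30a read 21.7, 36.4 and 44.96 in heterozygous and 23.5, 43.3 and 33.3 in null cells, a difference of -0.02. A dimmer probe set of Trim30a was at 2.35 with an adjusted p of 0.102 over probe sets, so the probe sets of this gene disagreed. Ifi203, a nuclear DNA-binding protein of the HIN family, read 48.8, 67.9 and 71.3 in heterozygous and 16.7, 53.4 and 87.7 in null cells, with overlapping groups (difference -0.53, adjusted p = 0.464). Its relative Ifi204 stayed under 32 on all arrays, at 12.7 to 14.9 in heterozygous and 0.436 to 2.21 in null cells, and Sp100, a protein of nuclear bodies, reached 32 on 2 null arrays, at most 48.9; neither was tested.

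Where several probe sets of a gene passed the filter, their differences mostly had the same sign. This was so for 12 of 13 genes, Trim30a being the exception. The probe sets of Rsad2 ranged from 1.76 to 2.78, those of Xaf1 from 2.48 to 2.73 and those of Ifi27 from 2.63 to 3.48. The dimmer probe sets of Rsad2, at 2.78 and 2.19, lay near the filter's limit and did not pass (adjusted p = 0.101 for each over probe sets). For Tor3a the range was 0.43 to 1.05, so that 1 of its 3 probe sets lay past 2-fold and the one used for the gene did not.

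**Figure D3:**
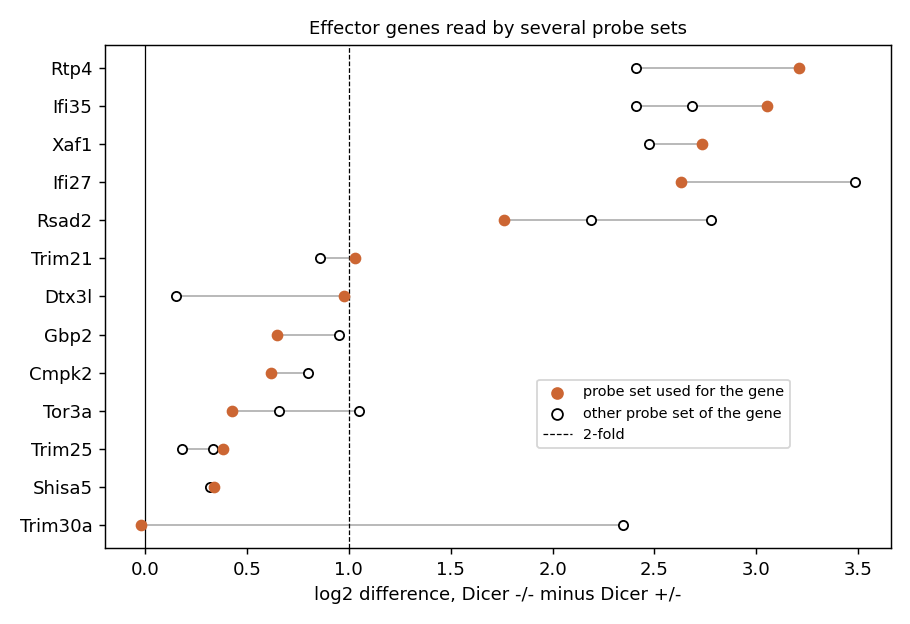
Difference of each probe set past the filter, Dicer -/- minus Dicer +/-, in log2 units (x axis), for the 13 effector genes with more than 1 such probe set; filled points are the probe sets used. All points of 12 genes lie above 0, and the 2 probe sets of Trim30a are at -0.02 and 2.35. A dimmer probe set of Rsad2 and a dimmer probe set of Rtp4 passed the filter through null arrays alone and had to lie above 0.

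**Figure D4:**
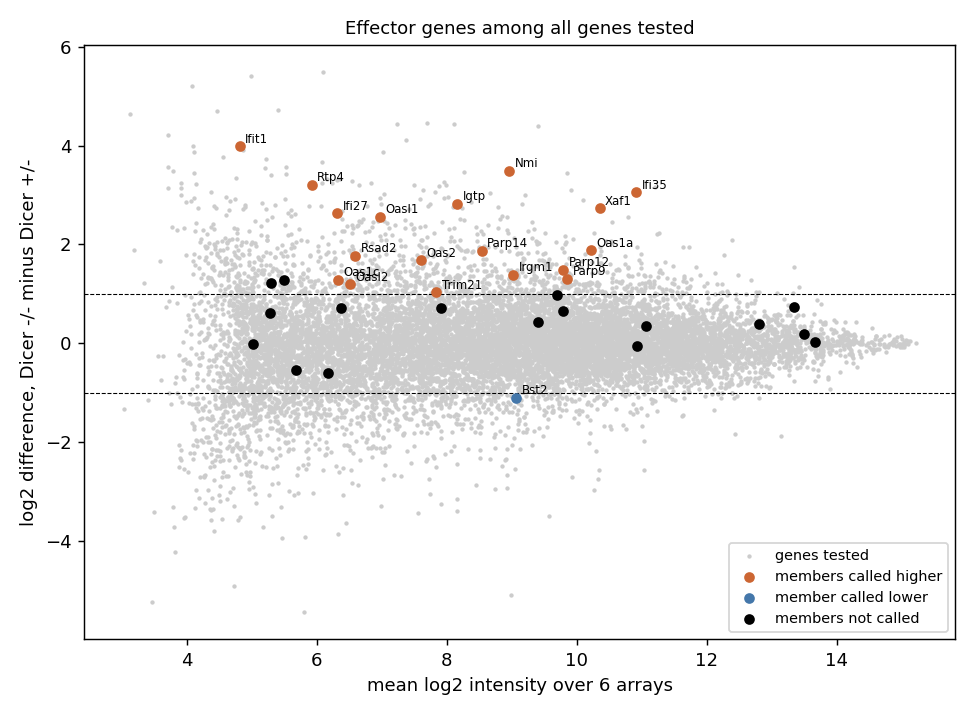
Difference in log2 units (y axis) against mean log2 intensity over the 6 arrays (x axis) for 12927 genes (grey), with the 36 tested effector genes in orange (called higher), blue (called lower) and black (not called); dashed lines mark 2-fold. The 18 orange points lie above the upper dashed line and the blue point, Bst2, below the lower one.

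The genes that carry the interferon signal were described from a separate list of 31 genes, of which 23 were tested. Of these, 6 passed as higher and 0 as lower. By the adjusted p with no size limit, 11 passed as higher and 2 as lower, against 24.5% and 24.3% of all genes. Those lower were Irf3 (-0.54) and Ptpn11 (-0.90), named after their values were seen; Irf3 was called lower as a mean over probe sets (-1.56) and without probe sets whose identifiers mark possible sharing (-3.24). By the full rule, 7.23% and 6.2% of all genes were called in each direction. None of the 6 interferon genes with a probe set passed the filter. Ifnb1, which encodes interferon beta, read 43.7, 25.6 and 42.98 in heterozygous and 31.7, 7.66 and 22.7 in null cells. The null arrays of Ifnb1 were all under 32, and the 4 interferon alpha genes and Ifng had at most 2 arrays above 32. Ifnk was not analysed here.

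Of the 10 tested receptor, kinase and STAT genes, 3 were called higher and 0 lower, against 7.23% and 6.2% of all genes. Ifngr2, a chain of the interferon gamma receptor, read 54.8, 31.2 and 32.2 in heterozygous and 147, 146 and 120.4 in null cells and rose 3.60-fold (adjusted p = 0.000546). The kinases Jak1 and Jak2 were just past the limit, at 1.04 and 1.06 (adjusted p = 2.89e-06 and 0.00137). Without heterozygous replicate 1 both fell short of it (0.99 and 0.84), leaving 4 of the 6 calls, and Jak2 did so without null replicate 3 (0.94) and with log2 of the value plus 16 (0.99). Jak1, which serves both interferon receptors, read 989, 1186 and 1028 in heterozygous and 2333, 2069.8 and 2193 in null cells. Ifnar1 and Ifnar2 form the receptor for interferon alpha and beta: Ifnar1 was at 0.10 (95% interval -0.11 to 0.31, adjusted p = 0.426) and Ifnar2 at 0.65 (adjusted p = 0.00131). Stat2 read 136, 125 and 67.8 in heterozygous and 182, 189 and 163 in null cells, a difference of 0.76 (adjusted p = 0.0315).

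Of the interferon regulatory factors, Irf9 and Irf2 were called higher. Irf9, a DNA-binding partner of STAT factors, read 120.4, 144 and 174 in heterozygous and 592, 522 and 579 in null cells, 3.90-fold higher (adjusted p = 1.46e-06). Irf2, a relative that often represses these genes, read 40.9, 31.7 and 12.7 in heterozygous and 79.8, 91.8 and 130.2 in null cells. It was 3.86-fold higher, or 2.83-fold with a floor of 32 (adjusted p = 0.00621 for the fitted difference, without the floor). Irf1, an activator, was at 0.63 (adjusted p = 6.4e-05) and Irf7, which amplifies interferon production, at 0.41 (adjusted p = 0.506), with readings from 29.3 to 55.4 over the 6 arrays. Socs1, a feedback inhibitor of the receptor kinases, read 16.5, 26.9 and 35.1 in heterozygous and 110.5, 99.6 and 77.2 in null cells and was called higher. Its rise was 3.79-fold, or 2.87-fold with a floor of 32 (adjusted p = 0.00286 for the fitted difference, without the floor). With a filter at a log2 value of 7, 15 genes of this list were tested and 3 called, Ifngr2, Irf2 and Socs1 not being among those tested.

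**Figure D5:**
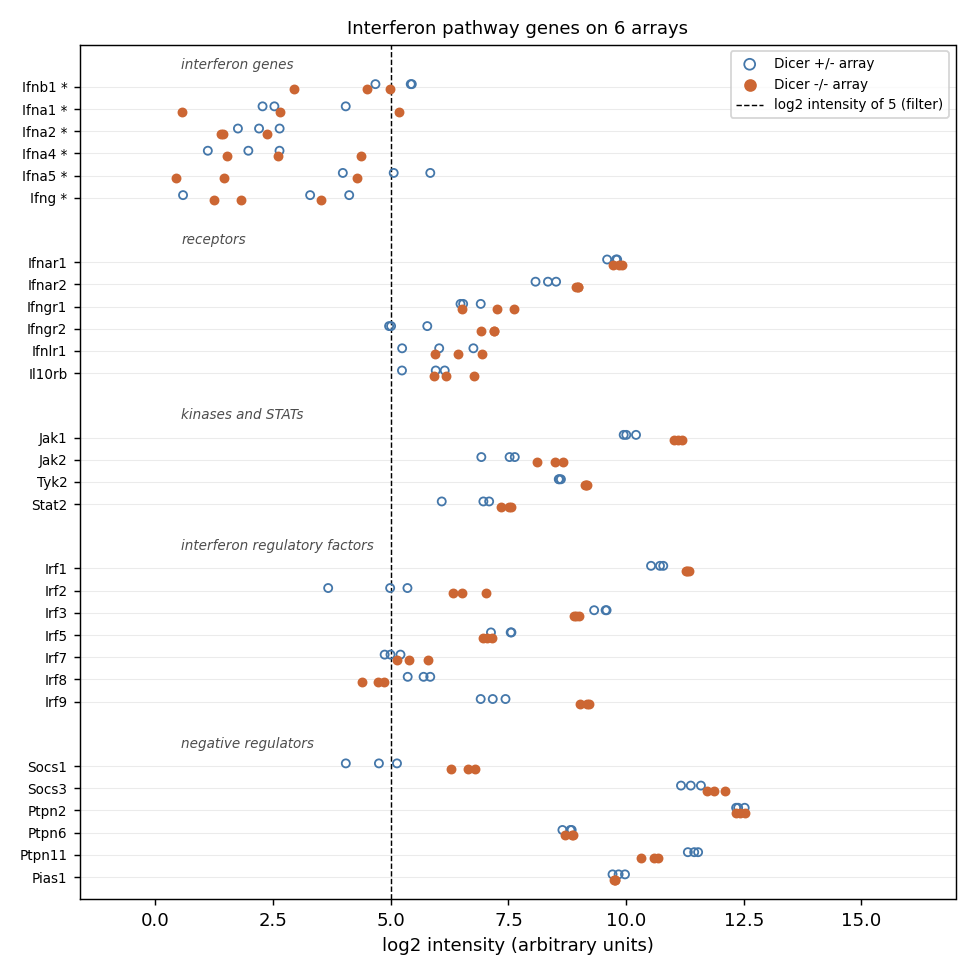
Intensity of each interferon pathway gene on a log2 scale (x axis) on 3 Dicer +/- arrays (open points) and 3 Dicer -/- arrays (filled points), by role; a star marks a gene that did not pass the filter (dashed line). The interferon genes lie around or left of the line, and Irf9 and Jak1 show filled points to the right of all open ones.

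Other cell types also express effector genes, so their markers were read beside the result. The summed intensity of 12 fibroblast markers, which feeder cells would carry, was 972 to 1059 in heterozygous and 967 to 1009 in null arrays. Without Dcn, left out after its values were seen, the sums were 913 to 1040.4 in heterozygous and 693 to 789 in null arrays. Of the 10 fibroblast markers tested, 8 had differences below 0 (median -0.45). All null arrays lay below all heterozygous arrays for 6 and above them for Dcn, where 28.9% and 28.3% of all genes lay so. By the adjusted p alone 3 were lower and 1 higher, against 24.3% and 24.5% of all genes. By the full rule Dcn was called higher (16.03 to 58.4 in heterozygous and 203 to 316 in null arrays) and Col1a1 lower, against 7.23% and 6.2% of all genes. Col1a1, at 38.3 to 90.9 in heterozygous and under 32 in null arrays, passed the filter through its heterozygous arrays alone. Col3a1, at 41.5 to 56.2 in heterozygous and 22.6 to 29.1 in null arrays, did so too. Both had to lie lower in null arrays, and both count among the 8 and the 6 given above. Postn stayed under 32 on every array, and Lum reached it on 1. The summed intensity of 8 leukocyte markers was 3222 to 3422 in heterozygous and 5767 to 6139 in null arrays, and Laptm5 and Cd68 made up most of it. Of the 5 leukocyte markers tested, 1 was called higher (Laptm5) and 2 lower, where 7.23% and 6.2% of all genes were. Those lower were Coro1a (391 to 423 in heterozygous and 71.5 to 80.4 in null arrays, adjusted p = 3.69e-07) and Cd79a (60.8 to 107 and 20.3 to 42.7, adjusted p = 0.0162). Cd68 read 952 to 1073 in heterozygous and 1756 to 2109 in null arrays, 1.995-fold higher and just short of the limit (adjusted p = 6.02e-06). By the adjusted p alone 2 leukocyte markers were higher and 2 lower, against 24.5% and 24.3% of all genes. All null arrays lay above all heterozygous arrays for 2 and below them for 2, against 28.3% and 28.9%. Ptprc, which defines leukocytes, stayed under 32 on every array. The part of other cells in the result was not tested.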

How the data were processed

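Expression was measured on 6 Affymetrix arrays, 3 of each line, placed in groups by their titles. The authors deposited 1 intensity per probe set on a linear scale, for 45101 probe sets; the mean of each array after trimming 2% at each end was 500, from the values themselves. GCRMA is named in the submitters' processing notes, per the labels, with no role stated; GCRMA usually yields log2 values, and these are linear. No detection calls were used, so a low intensity may be background, and precision is limited by having 3 arrays a line.

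Leaving out 64 control probe sets, 34945 carried 1 gene symbol, 932 several and 9160 none, and 0 symbols changed through the RefSeq table of GRCm38.p6. The log2 of each intensity was taken. The filter kept probe sets at log2 5 or more, which is an intensity of 32, on 3 or more arrays. The fit used limma 3.58.1 in R 4.3.3 (lmFit and trended eBayes), with group as the term, two-sided tests and Benjamini-Hochberg adjustment over 12927 genes. It was tested on simulated data. Named are all members, called pathway genes and, whatever their values, other pathway genes fixed by name (Stat2, Irf1, Irf7, Irf9, Ifnar1, Ifnar2 and Ifnb1). 1 gene of the pathway list is not reported here. The members and lists were chosen with earlier results of these data known. Alternatives were other filters, a floor, an offset, normalizations, variance priors, probe-set rules, thresholds, the replicate number as a block and leaving out each array.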

Additional observations from a re-analysis of the deposited data

How the results depend on the processing

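The count of 19 called effector genes lay between 16 and 27 over 18 alternatives, and 17 of the 19 kept their call in every alternative that tested them, the exceptions being Bst2 and Trim21. The 1 member called lower became 2 with no filter, when Ifi204 was added (-3.49, adjusted p 0.0253, all arrays under 32), and 0 with arrays centred on their medians; leaving out 1 array gave 0 to 1. Centring moved the median of all genes from -0.01 to 0.14 and the calls over all genes from 934 higher and 802 lower to 1263 and 575; 20 members were then called, all higher. Pathway genes called numbered 3 with a log2 filter of 7 and 13 at the adjusted p alone, where all genes numbered 6305; leaving out 1 array gave 4 to 6, the lost calls being Jak1 and Jak2. The sign turned for members near 0 or near the floor: Trim30a (0.13 centred, 0.14 with quantile normalization, 1.16 as a mean over probe sets, -0.32 to 0.21 leaving out arrays), Ifi30 (0.091 centred, -0.11 to 0.0072 leaving out arrays), Ifitm1 (-0.027 to 0.058) and Ifi203 (-1.05 to 0.15); the cause was not tested. With the replicate number as a block, 19 members and 6 pathway genes were called. Same-numbered arrays had correlations of 0.03 to 0.08 between their deviations, which are low but do not settle whether the numbers pair the arrays. Without detection calls, differences among values under 32 have no order.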
